A study of Mus musculus with 2 samples.

Results

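DNA repair genes were followed in mouse bone marrow stromal cells after total body irradiation. The 57 genes were chosen by name, as known components of the repair pathways for double-strand breaks, mismatches, damaged bases, bulky lesions and crosslinks, together with the signalling and lesion bypass genes that act beside them. The choice was made with earlier results of these data known. Of these 57, 55 had a probe named for them among the 16390 named genes of the array. Rad54b, a homologue of the RAD54 translocase, and Xrcc2, a homologous recombination gene, had none and are not analysed here. The cells came from C57BL/6 mice that were unirradiated, or were taken 1 day or 3 days after 9.5 Gy, and the series description gives 6 mice without saying how they were divided or pooled. Each time point was hybridised on 1 array, with unirradiated RNA in Cy5 and irradiated RNA in Cy3, and dyes were not swapped. The labels used here do not describe how stroma was isolated, and ratios cannot show whether a marker of the labelled cell type was present.

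Cells repair broken DNA by routes that differ in when they can act. Homologous recombination copies an intact sister chromatid and so belongs to S and G2 phase, and many of its genes are transcribed mainly in dividing cells under E2F factors. End joining seals breaks without a template in any phase, and base and nucleotide excision repair also act in resting cells. Ionising radiation makes double-strand breaks, single-strand breaks and oxidised bases, and activates p53, which induces some repair genes.

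All values below are log2 ratios, centred so that the median gene of an array is 0, and none has a replicate error. Which channel is the numerator is not stated in the labels. A ratio above 0 is taken to mean more transcript after irradiation, a direction that is likely and not established. The basis is the p53 targets outside repair, such as Cdkn1a (2.23 at day 1 and 1.90 at day 3), of which 7 of 9 were at least 2-fold above 0 on each array, and the erythroid genes, such as Gata1 (-4.06 and -3.85), which were below 0 on both. The order of the titles alone would give the reverse, and then "higher" and "lower" would change places throughout. With ratios above 0 read as more transcript after irradiation, other blood cell lists did not follow the erythroid genes at day 1. All 11 granulocyte genes (median 5.89) and all 9 pan-leukocyte genes (median 5.35) with a ratio were higher, and the B lineage median was near 0. Because p53 targets served for this reading, the sign of p53-induced repair genes is not independent of it. Different probes of 1 gene differed with a pooled SD of 0.76 at day 1 (85 genes) and 0.58 at day 3 (116 genes). That is the only spread that could be measured, and variation between animals or labelling reactions is not part of it. It is the spread of a single probe, and a gap between 2 genes with 1 probe each carries the spread of both.

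At day 3, 48 repair genes had a ratio, and 17 of them were lower by 2-fold or more and 2 were higher. Among all genes on that array 6.85% were lower and 7.35% higher, so the lower share of the repair genes (35.4%) was above the background. Because the genes were chosen with earlier results of these data known, this contrast is not independent support. At day 1, 10 of 51 repair genes (19.6%) were lower, against 11.1% of all genes, and 5 of 51 (9.80%) were higher, against 19.6% of all genes. The median was -0.45 at day 1 and -0.30 at day 3. The lowest repair gene at day 3 was the recombination gene Rad54l (-3.44) and the highest the bypass polymerase gene Polk (1.72). At day 1 the lowest was Fancc (-2.45) and the highest Dclre1c (2.56). With ribosomal protein genes set to 0, the lower genes at day 3 numbered 7 of 48, against 2.50% of all genes, and at day 1 they numbered 3 of 51, against 3.57%. With the density peak set to 0, the lower genes at day 1 numbered 5 of 51, against 7.57%.

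**Figure D1:**
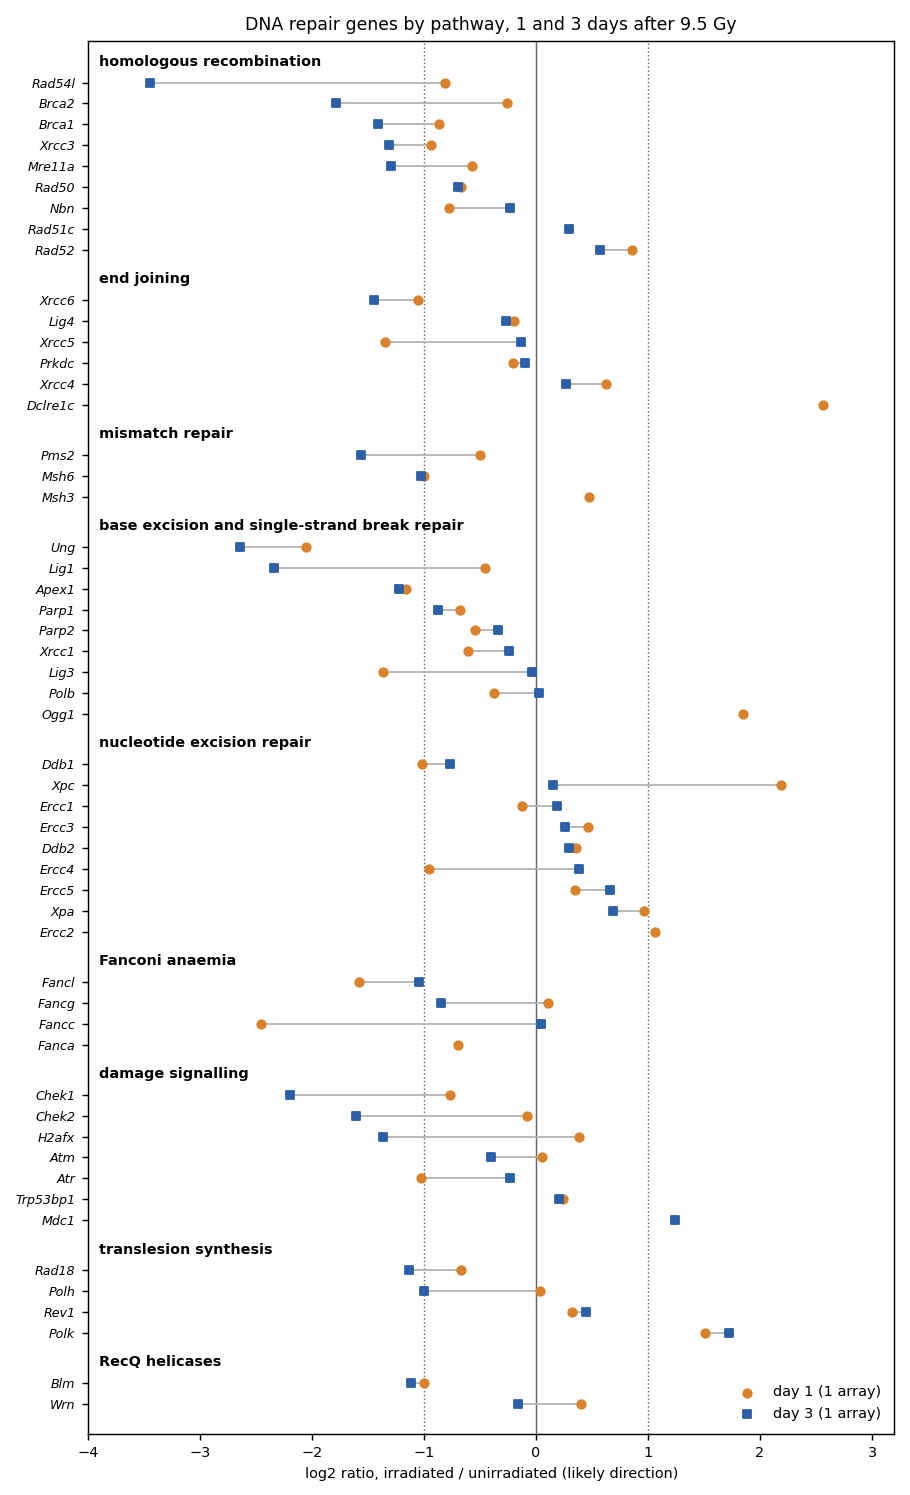
Log2 ratio of each repair gene with a value at day 1 (circles) and day 3 (squares), grouped by pathway and ordered within it by the day 3 value; a grey line joins both values of a gene and dotted lines mark 2-fold. Rad54l, Ung, Lig1 and Chek1 lie farthest to the left at day 3. The nucleotide excision members stay within 2-fold at day 3, as do 9785 of all 11404 genes.

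Most members low at day 3 were within 2-fold at day 1, as were most genes of the day 1 array (7230 of 10434). How calls overlapped between the arrays was counted for the members only, so whether their overlap differed from that of other genes is not known. Of the 17 genes lower at day 3, 12 were within 2-fold at day 1 and 5 (Xrcc6, Msh6, Ung, Apex1 and Fancl) were lower on both arrays. Another 5 genes (Xrcc5, Lig3, Ddb1, Fancc and Atr) were lower at day 1 and within 2-fold at day 3. Polk was the 1 gene higher on both arrays, and 22 genes were within 2-fold on both. Dclre1c, Ogg1 and Ercc2, higher at day 1, had no ratio at day 3, and Mdc1, higher at day 3, had none at day 1. The arrays may share their unirradiated RNA, so the sign that a gene shares between them is not independent support. Exo1, a nuclease of mismatch repair and end resection, and Fancd2, the ubiquitinated core of the Fanconi pathway, had a probe and no ratio on either array. Among members with a probe 7.27% had no ratio at day 1 and 12.7% at day 3, against 36.3% and 30.4% of all named genes.

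**Figure D2:**
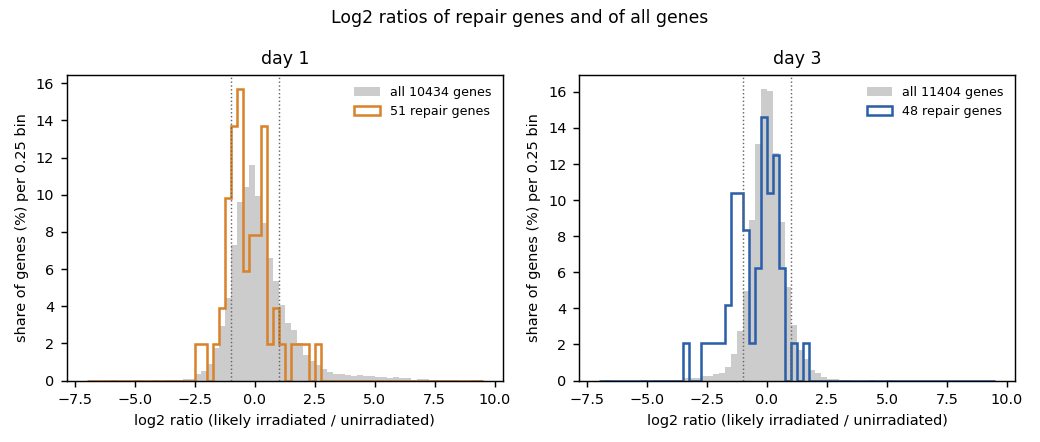
Distribution of log2 ratios of all genes (grey bars) and of the repair genes (outline) at day 1 and day 3, as a share of genes per bin, with dotted lines at 2-fold. At day 3 the outline holds 35.4% of its genes below -1, against 6.85% of all genes, and at day 1 all genes have a tail above the highest repair gene (2.56).

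The promoter sequences are shown because E2F factors bind and drive S phase genes, and several of the low genes belong to that class. The motifs were chosen with earlier results of these data known. RefSeq promoter windows (GRCm38.p6, 250 bases before to 50 after a gene start) were found for 44 of the 57 genes, 51 windows in all. They were searched on both strands for the E2F words TTTCCCGC, TTTCGCGC, TTTGCCGC and TTTGGCGC, for CCAAT, and for the p53 consensus of 2 decamers at most 13 bases apart. An E2F word was found in 10 of the 51 windows (19.6%), from 9 genes, against 2.27% of all 32851 windows and 3.57% of 12252 windows of genes with a ratio on either array. Each stretch below runs 5′ to 3′ on the gene's strand and has the E2F match in capitals, which reads as the reverse complement where the word lies on the other strand. Msh3 holds a pair of overlapping matches, of which the first is shown. The starts of Rad51c are numbered by ascending chromosome position, so on its - strand the second start lies upstream.
Brca2 (chr5:150522442-150522471, + strand): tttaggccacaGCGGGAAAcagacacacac
Chek2 (chr5:110839820-110839849, + strand): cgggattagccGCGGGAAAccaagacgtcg
Lig1 (chr7:13278841-13278870, + strand): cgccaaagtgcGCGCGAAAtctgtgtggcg
Msh6 (chr17:87975054-87975083, + strand): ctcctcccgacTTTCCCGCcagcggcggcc
Xrcc6 (chr15:82016312-82016341, + strand): agggggtggaaGCGGGAAAtgcgagtgggc
Fancg (chr4:43010335-43010364, - strand): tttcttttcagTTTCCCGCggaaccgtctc
Mdc1 (chr17:35841471-35841500, + strand): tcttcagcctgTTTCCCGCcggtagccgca
Msh3 (chr13:92355187-92355216, - strand): ttgccgtcaagTTTGGCGCgaaatcgcagc
Rad51c first start (chr11:87404477-87404506, - strand): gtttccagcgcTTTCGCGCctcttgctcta
Rad51c second start (chr11:87404941-87404970, - strand): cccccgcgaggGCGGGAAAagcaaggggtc

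Genes that carry an E2F word were found low and not low. At day 3, Lig1 (-2.34), Brca2 (-1.78), Chek2 (-1.61), Xrcc6 (-1.44) and Msh6 (-1.02) were at least 2-fold lower. Fancg (-0.85) and Rad51c (0.29) were within 2-fold, Mdc1 (1.24) was higher, and Msh3 had no ratio. Among windows of genes at least 2-fold lower at day 3 over the whole array, 54 of 769 (7.02%) held an E2F word, against 350 of 10083 (3.47%) for genes within 2-fold and 19 of 836 (2.27%) for genes higher. For repair genes the same counts were 5 of 20, 3 of 23 and 1 of 3 windows. An E2F word was in 3 of 12 windows (25.0%) of the members on the S phase list described below. It was in 7 of 39 windows (17.9%) of the other members, so these small counts hardly set the list apart. The windows of Rad54l, Ung, Chek1, Blm and Brca1 held no such word. CCAAT was in 23 of the 51 windows (45.1%) and in 37.4% of all windows, and the p53 consensus was in none of the 51 and in 0.073% of all windows. A match is a run of letters and not a measured binding site. Whole windows of 2 genes are given for comparison, Chek2 with 1 E2F and 2 CCAAT matches in capitals and Rad54l, the lowest repair gene, with 1 CCAAT match.
Chek2 promoter (chr5:110839733-110840032, + strand): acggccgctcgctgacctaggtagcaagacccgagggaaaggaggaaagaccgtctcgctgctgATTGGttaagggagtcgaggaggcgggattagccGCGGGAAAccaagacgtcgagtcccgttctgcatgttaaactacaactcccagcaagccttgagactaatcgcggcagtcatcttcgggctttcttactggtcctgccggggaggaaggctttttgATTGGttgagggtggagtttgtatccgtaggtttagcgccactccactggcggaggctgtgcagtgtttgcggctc
Rad54l promoter (chr4:116123640-116123939, - strand): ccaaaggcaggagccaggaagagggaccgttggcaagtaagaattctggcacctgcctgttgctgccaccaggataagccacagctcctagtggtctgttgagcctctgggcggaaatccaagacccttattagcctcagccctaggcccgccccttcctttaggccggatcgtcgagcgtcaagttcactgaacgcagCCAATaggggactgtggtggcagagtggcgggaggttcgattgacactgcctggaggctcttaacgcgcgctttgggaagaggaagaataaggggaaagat

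In homologous recombination, 5 of 9 members were lower by 2-fold or more at day 3, against 6.85% of all genes. None were higher, and the median was -1.29. With ribosomal protein genes at 0, Rad54l (-2.92) and Brca2 (-1.26) remained past 2-fold, and Brca1 (-0.89), Xrcc3 (-0.79) and Mre11a (-0.77) did not. At day 1 none of 8 were past 2-fold, when 11.1% of all genes were lower and 19.6% higher, and the median was -0.72. Rad54l, a DNA translocase of recombination, was at -0.81 at day 1 and at -3.44, or 10.9-fold lower, at day 3. Brca2, a tumour suppressor that acts on resected ends, was at -0.26 and then -1.78. Brca1, also a tumour suppressor, which promotes resection and recruits BRCA2, was at -0.87 and then -1.41. Both were low at day 3 and within 2-fold at day 1.

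Xrcc3, which acts in strand exchange, was at -0.93 at day 1 and -1.31 at day 3, while Rad51c, which had no ratio at day 1, was at 0.29 at day 3. Rad52, which anneals single strands, was above 0 on both arrays (0.85 and 0.57), the only member of this pathway to be so. The MRN complex senses broken ends and starts their resection. At day 1 its subunits lay close together, with the nuclease Mre11a at -0.57, Rad50 at -0.67 and Nbn at -0.78. At day 3 they lay farther apart, with Mre11a at -1.29, Rad50 at -0.69 and Nbn at -0.24. Mre11a minus Nbn was -1.06 at day 3 and 0.20 at day 1, where the single-probe SDs were 0.58 and 0.76. A gap between genes has a wider spread than a single probe.

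Of 17 other recombination genes listed, 11 had a ratio at day 3, 2 of them lower and none higher, around a median of -0.75. The lowest was Rad51ap1 (-3.92), a recombination cofactor of dividing cells, which had been at -0.70 at day 1, and the highest was the nuclease scaffold Slx4 (0.22). At day 1, 12 of them had a ratio, with 1 lower (Rad51b, -1.50), 1 higher (Slx4, 1.10) and a median of -0.20. Of all genes 6.85% were lower at day 3, and 11.1% were lower and 19.6% higher at day 1.

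Of 5 end joining members with a ratio at day 3, Xrcc6 was the 1 past 2-fold. Of 5 other end joining genes 2 were lower too, against 6.85% of all genes. The Ku heterodimer, made of Xrcc5 and Xrcc6, caps a broken end first. Its subunits were both lower at day 1, Xrcc5 at -1.35 and Xrcc6 at -1.06. At day 3 Xrcc5 was at -0.13 and Xrcc6 at -1.44, a gap of 1.31 (2.49-fold). The single-probe SD was 0.58, and a gap has a wider spread. Prkdc, the DNA-dependent kinase that Ku recruits, was at -0.21 and -0.10. The final ligation is carried out by Lig4 (-0.19 and -0.27) with its scaffold Xrcc4 (0.63 and 0.27). All 3 were within 2-fold on both arrays.

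Dclre1c encodes Artemis, the nuclease that opens hairpins and trims ends. It had the highest value of all members at day 1 (2.56, or 5.90-fold) and no ratio at day 3 and stood at percentile 95.0 of all genes on the day 1 array. The end joining median was -0.20 over 6 genes at day 1, with 1 higher and 2 lower, and -0.13 over 5 genes at day 3, with 1 lower. Of all genes 19.6% were higher and 11.1% lower at day 1, and 6.85% lower at day 3. Of 5 other end joining genes with ratios, 1 was lower at day 1 (the polymerase gene Poll, -1.09, with Polq highest at -0.04) and 2 at day 3 (Nhej1, the XLF ligation factor, lowest at -1.36, and Aplf at -1.28). Poll was the highest of these at day 3 (-0.16).

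Mismatch repair had few ratios. Msh6, which recognises base mismatches, was at -1.0003 at day 1 and -1.02 at day 3, just past the 2-fold limit on both arrays. Pms2, the endonuclease subunit that acts after recognition, was at -0.50 and then -1.56. Msh3, which recognises larger loops, was at 0.47 at day 1 and had no ratio at day 3. Both members with a ratio at day 3 were therefore lower, and 1 of 3 was lower at day 1, against 6.85% and 11.1% of all genes. Among the other mismatch genes, Pms1 (-0.65 and -0.48), Mlh3 (0.38 and -0.13) and the sliding clamp Pcna (-0.21 and -0.68) were within 2-fold on both arrays.

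Base excision repair held both the lowest day 3 values outside recombination and a set of genes near 0. The median over the members was -0.60 at day 1 (9 genes, 3 lower and 1 higher) and -0.61 at day 3 (8 genes, 3 lower and none higher). Of all genes 11.1% were lower and 19.6% higher at day 1, and 6.85% lower and 7.35% higher at day 3. Ung, which removes uracil from DNA and is expressed mainly in S phase, was at -2.06 at day 1 and -2.65 at day 3, 6.26-fold lower. Ogg1, which removes oxidised guanine, was higher at day 1 (1.85, or 3.60-fold) and had no ratio at day 3. Apex1, the endonuclease that cuts abasic sites, was lower on both arrays (-1.16 and -1.23). Polb, the gap-filling polymerase, was at -0.38 and 0.03.

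The DNA ligases of this pathway moved apart. Lig1, which also joins Okazaki fragments in replication, was at -0.45 at day 1 and -2.34 at day 3. Lig3 was at -1.37 at day 1 and -0.03 at day 3, and its scaffold Xrcc1 at -0.60 and -0.24. Lig1 minus Lig3 was 0.92 at day 1 and -2.30 (4.94-fold) at day 3. The single-probe SDs were 0.76 and 0.58, and a gap has a wider spread. The break sensors Parp1 (-0.68 and -0.88) and Parp2 (-0.54 and -0.34) were within 2-fold on both arrays. Of 12 other genes of this pathway with a ratio at day 3, 2 were lower, against 6.85% of all genes, and none higher. Their median was -0.10. The lower genes were the flap nuclease gene Fen1 (-3.29), used in replication, and the glycosylase gene Neil3 (-2.41), and Parg was highest (0.10). At day 1, 10 had a ratio, from the glycosylase gene Mpg (-0.92) to Neil3 (1.35).

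None of 8 nucleotide excision repair members was past 2-fold at day 3, when 6.85% of all genes were lower and 7.35% higher. With 8 genes, that does not set the members apart from the background. Of 14 other genes of the pathway, 3 (21.4%) were lower. The median of the members was 0.28 over 8 genes at day 3, with 7 of 8 above 0, and 0.36 over 9 genes at day 1. At day 1, 2 of 9 were higher (22.2%) and 1 lower (11.1%), near the 19.6% and 11.1% of all genes. Xpc, the damage sensor of the global branch, was at 2.19 (4.55-fold) at day 1 and at 0.15 at day 3, a difference of -2.03. Xpa, which verifies the lesion, was at 0.97 and 0.69. The TFIIH helicase genes Ercc2 and Ercc3 were at 1.06 and 0.46 at day 1, and at day 3 Ercc3 was at 0.25 and Ercc2 had no ratio. Xpc and Ercc4 were the members of this pathway with a change of 2-fold or more between the arrays.

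The incision step uses the XPF-ERCC1 nuclease on the 5′ side and XPG, encoded by Ercc5, on the 3′ side. Ercc4, the XPF subunit, was at -0.96 at day 1 and 0.39 at day 3, and its partner Ercc1 at -0.13 and 0.19. Ercc5 was at 0.34 and 0.66. In the UV damage binding complex, Ddb2 was at 0.36 and 0.30 and Ddb1 at -1.02 and -0.76, so that Ddb1 minus Ddb2 was -1.38 and -1.06. Ddb1 also serves as an adaptor of CUL4 ubiquitin ligases. Of 14 other genes of the pathway with a ratio at day 3, 3 were lower, against 6.85% of all genes, and none higher. Their median was -0.32. The 3 were the single-strand binding subunits Rpa2 (-1.47) and Rpa1 (-1.42), which also serve replication, and Ercc8 (-1.23), and the highest was the TFIIH gene Gtf2h2 (0.44). At day 1, 3 of 15 were lower, against 11.1% of all genes, with Gtf2h4 lowest (-1.58) and Uvssa highest (0.74).

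**Figure D3:**
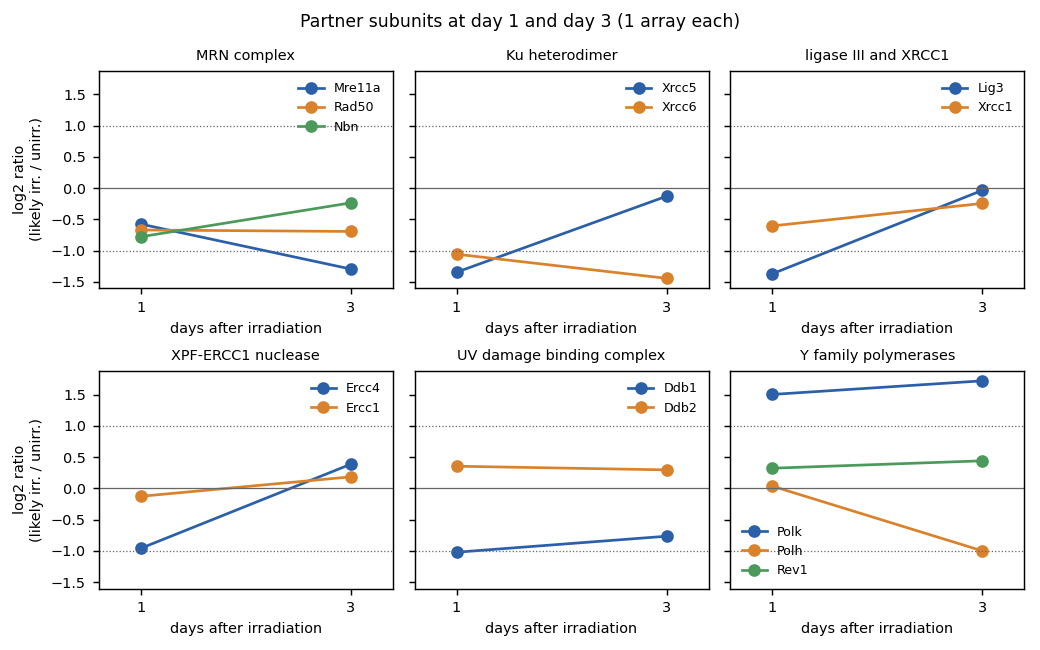
Log2 ratios at day 1 and day 3 of genes whose products work as partners, 1 panel per complex or family, with dotted lines at 2-fold. Xrcc5 lies 1.31 above Xrcc6 at day 3, Mre11a minus Nbn is -1.06 at day 3, and Polk lies above Polh on both arrays.

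Fanconi anaemia genes, which unhook crosslinked strands during replication, had a median of -1.14 over the 4 members with a ratio at day 1, 2 of them lower. The 6 other Fanconi genes had a median of -0.0010, and all 10 together had -0.43. Of all genes 11.1% were lower at day 1. Fancc, a subunit of the core complex, was at -2.45 (5.47-fold lower) at day 1 and at 0.05 at day 3. This was the largest increase of any member between the arrays (2.50). Fancl, the ubiquitin ligase subunit, was lower on both (-1.58 and -1.04). Fanca, at -0.70 at day 1, had no ratio at day 3, and Fancg was at 0.11 and -0.85. The day 3 median was -0.85 over 3 genes. Of the other Fanconi genes, Fance, a core subunit that binds FANCD2, was at -1.57 and -0.02, and Ube2t, the conjugating enzyme of FANCL, was at -1.31 at day 1. None of the 5 other genes with a ratio at day 3 were past 2-fold, from Fancm (-0.47) to Wdr48 (0.33), and Usp1 was highest at day 1 (0.85). On the day 3 array 6.85% of all genes were lower and 7.35% higher.

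Among signalling genes, the apical kinases were within or near 2-fold and the checkpoint kinases were low at day 3. Atm, activated by double-strand breaks, was at 0.05 and -0.40, and Atr, activated by single-stranded DNA, at -1.02 and -0.23. Chek1, the ATR target that halts replicating cells, was at -0.77 at day 1 and -2.20 (4.59-fold lower) at day 3. Chek2, the ATM target, was at -0.08 and then -1.61. The histone gene H2afx (now H2ax), whose product marks break sites when phosphorylated, was at 0.38 and then -1.36. For each of the 3 the day 3 value was below the day 1 value by 2-fold or more.

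The adaptors Mdc1 and Trp53bp1 were not low where they had a ratio. Mdc1, which binds the H2AX mark directly, was at 1.24 at day 3 with no ratio at day 1. Trp53bp1, which favours end joining over resection, was at 0.24 and 0.20. The signalling median was -0.01 at day 1 (6 genes) and -0.40 at day 3 (7 genes), with 3 lower and 1 higher. Of 12 other signalling genes with a ratio at day 3, 3 were lower and none higher. Of all genes 6.85% were lower and 7.35% higher. The 3 were the clamp subunit Rad9a (-1.55), the replication fork protein Tipin (-1.09) and the ATR activator Topbp1 (-1.02). At day 1, Brcc3, a deubiquitinase of the BRCA1-A complex, was highest (1.09) and Tipin lowest (-1.001), and Brcc3 was also highest at day 3 (0.82).

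In translesion synthesis, low-fidelity polymerases copy past damage that stops the replicative enzymes. Polk was higher on both arrays (1.505 and 1.72, or 2.84-fold and 3.30-fold), the only one so among the 46 members with both values. Polh, which bypasses ultraviolet photoproducts, was at 0.04 at day 1 and -0.9998 at day 3, just short of the 2-fold limit. The scaffold polymerase gene Rev1 was at 0.32 and 0.44. Rad18, the ligase that ubiquitinates PCNA to start bypass, was at -0.67 and -1.13. Polk and Polh differed by 1.47 at day 1 and 2.72 at day 3. The single-probe SDs were 0.76 and 0.58, and a gap has a wider spread. None of the 7 other bypass genes were past 2-fold at day 3, with Ube2a highest (0.63) and Poli lowest (-0.68). At day 1 Hltf (1.17) and Ube2b (1.03) were higher and Mad2l2 (-1.12) lower. Of all genes 6.85% were lower and 7.35% higher at day 3, and 11.1% lower and 19.6% higher at day 1. Of the RecQ helicases, Blm, which dissolves recombination intermediates, was at -0.9975 (just within the limit) and -1.11, and Wrn at 0.41 and -0.16. Recql and Recql5 were both at 0.08 at day 1, and at -0.02 and -0.59 at day 3.

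Set across pathways, the medians of the members at day 3 ran from -1.29 for homologous recombination, through -0.85 for Fanconi anaemia, -0.61 for base excision, -0.40 for signalling, -0.28 for translesion synthesis and -0.13 for end joining, to 0.28 for nucleotide excision repair. Mismatch repair had 2 genes at day 3 (Pms2 at -1.56 and Msh6 at -1.02), too few for a median. The RecQ members, 2 on each array, were also too few. At day 1 the order began with Fanconi anaemia (-1.14), recombination (-0.72), base excision (-0.60) and mismatch repair (-0.50), and ended with end joining (-0.20), signalling (-0.01), translesion synthesis (0.18) and nucleotide excision (0.36). The order depended on which genes were counted. Over all listed genes, members and others, recombination was at -0.54 at day 1 and -0.76 at day 3, nucleotide excision repair at -0.23 and 0.03, and translesion synthesis highest at 0.32 and 0.21. The other nucleotide excision genes alone were at -0.29 and -0.32, opposite in sign to the members. With so few genes in each pathway and 1 array per time point, the order is a description of these arrays. Ribosomal protein genes, if set to 0, would raise every median by 0.51 at day 1 and 0.52 at day 3, which would put above 0 the medians of end joining (0.31 and 0.39) and signalling (0.50 and 0.12) on both arrays, of mismatch repair at day 1 (0.0056) and of translesion synthesis at day 3 (0.24).

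Of 46 repair genes with both values, 9 were at least 2-fold lower at day 3 than at day 1 and 4 were higher, where all genes gave 16.8% lower and 12.1% higher. The lower share of the members was 19.6% and the higher share 8.70%, both near the background. The 9 were Rad54l (-2.63), Xpc (-2.03), Lig1 (-1.89), H2afx (-1.75), Chek2 (-1.53), Brca2 (-1.52), Chek1 (-1.43), Pms2 (-1.06) and Polh (-1.04). The 4 were Fancc (2.50), Ercc4 (1.35), Lig3 (1.34) and Xrcc5 (1.22). All 4 had been at -0.96 or below at day 1 and lay between -0.13 and 0.39 at day 3.

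A list of repair genes known for transcription in S phase was drawn up across pathways with earlier results of these data known. The counts of this list are therefore not independent support. Of its 12 members, 8 had a ratio at day 3, and all 8 were lower by 2-fold or more (median -1.99), against 9 of the 40 other members and 6.85% of all genes. They were Rad54l, Ung, Lig1, Chek1, Brca2, Brca1, Blm and Msh6, from 5 of the 9 pathways. At day 1, 9 had a ratio, all below 0, with 2 past 2-fold (22.2%, against 11.1% of all genes) and a median of -0.81. The members outside the list had medians of -0.16 at day 1 and -0.20 at day 3. With ribosomal protein genes at 0, the lower genes of the list at day 3 numbered 5 of 8, against 2.5% of all genes. The 9 other members lower at day 3 were Chek2, Pms2, Xrcc6, H2afx, Xrcc3, Mre11a, Apex1, Rad18 and Fancl, none below -1.61. Other repair genes of the S phase list, outside the 57, had a median of -1.57 at day 3 (6 genes, 3 lower).

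The S phase list moved beside the replication genes. All 12 DNA replication genes were lower at day 3, with a median of -2.29 (from -4.42 to -1.61), and 4 of 12 at day 1, with a median of -0.85. Of all genes 6.85% were lower at day 3 and 11.1% at day 1. Mitotic genes were lower in 7 of 8 cases at day 3, with a median of -3.31. At day 1 their median was 0.66, and 2 of 9 were higher, near the 19.6% of all genes. Fewer cycling cells and less of these transcripts per cell cannot be told apart in such bulk RNA.

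A list of repair genes reported as p53 targets in human or mouse cells did not lie together. Polk was higher on both arrays and Xpc at day 1 alone, while Ddb2 (0.36 and 0.30), Ercc5 (0.34 and 0.66) and Polh (0.04 and -0.9998) were within 2-fold on both and Fancc was lower at day 1 (-2.45). The median of these 6 genes was 0.35 at day 1 and 0.23 at day 3. The p53 targets outside repair had medians of 2.23 and 1.90 over 9 genes.

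**Figure D4:**
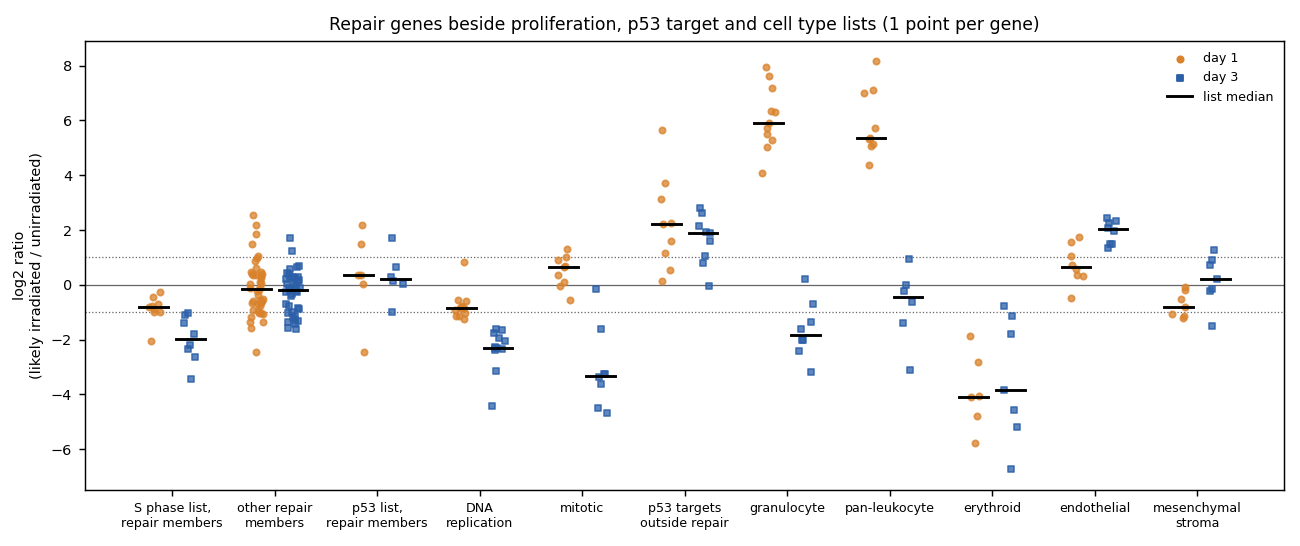
Log2 ratios of single genes at day 1 (circles) and day 3 (squares) for the S phase list, the other repair members, the p53 list (a subset of the other members) and lists of proliferation, p53 target and cell type genes, with a bar at each median. At day 3 all S phase repair genes lie below -1, as do all DNA replication genes. The S phase and p53 lists were chosen with earlier results of these data known.

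Every cell type list held genes past 2-fold on at least 1 array. At day 1 all 11 granulocyte genes with a ratio were higher (median 5.89, from 4.07 to 7.97), as were all 9 pan-leukocyte genes (5.35, from 4.36 to 8.17). At day 3, 6 of 8 granulocyte genes were lower (median -1.82, from -3.19 to 0.22), and pan-leukocyte genes ranged from -3.09 to 0.93. Erythroid genes were lower on both arrays, 6 of 6 at day 1 (median -4.08, from -5.77 to -1.88) and 6 of 7 at day 3 (-3.85, from -6.73 to -0.78). B lineage genes had medians near 0 at day 1 (range -1.86 to 0.98 over 4 genes, 1 lower) and of -1.60 at day 3 (range -3.34 to 0.61 over 4 genes, 2 lower). Endothelial genes were higher in 8 of 8 cases at day 3 (median 2.03) and in 3 of 8 at day 1 (0.66). Mesenchymal genes had medians of -0.82 at day 1 and 0.20 at day 3 over 7 genes. Of these 7, 3 were lower at day 1, and 1 was lower and 1 higher at day 3. Of all genes 19.6% were higher and 11.1% lower at day 1, and 7.35% higher and 6.85% lower at day 3. These ratios carry no level, so which markers were near 0 in a channel is unknown, and the part of cell composition in the repair gene values was not tested.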

How the data were processed

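Total RNA of mouse bone marrow stromal cells was amplified as amino allyl RNA and coupled to Cy5 (unirradiated) or Cy3 (irradiated), per the labels. The authors deposited 1 log ratio of the channels per probe and array, taken here as log2 values. The base, the numerator, the scanner, the background correction, the normalisation and the filter behind empty entries are not given in the sources used here. Over 23473 probes, these deposited values had a median of 0.0003 (day 1) and -0.0001 (day 3).

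The platform annotation gave 1 symbol to 16631 probes. Symbols were brought up to date through RefSeq genes (GRCm38.p6), with 12622 current already, 3947 changed through an older name and 62 kept as given, which made 16390 genes. Probes were averaged per gene, and each array's gene median (-0.0119 at day 1, 0.0162 at day 3) was subtracted with pandas 2.3.3 and Python 3.11.15. Every member had at most 1 probe. "Higher" and "lower" mean a log2 ratio of at least 1 in size, that is 2-fold. No p-value is given because each time point had 1 array. Medians are given for at least 3 genes. The size rule was tested on simulated data.

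The members, pathway lists, S phase and p53 lists and motifs were chosen with earlier results of these data known. All members are named, and of the other repair genes those highest or lowest in their pathway on an array, with further ones chosen after their values were seen. Promoter windows (250 bases before to 50 after a gene start) came from RefSeq, GRCm38.p6. The alternatives were other centrings, other probe and naming rules, genes on both arrays, other fold limits and list means.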

Additional observations from a re-analysis of the deposited data

Results flagged for a closer look

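Neil3, a glycosylase expressed in dividing cells, was the 1 listed repair gene past 2-fold in opposite directions on the arrays. It was 1.35 at day 1 and -2.41 at day 3, a difference of -3.76 (log2). Neil3 was no member of the 57 genes, and the difference was not tested because each time point had 1 array.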

How the results depend on the processing

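All values depend on where 0 was set. With ribosomal protein genes at 0, every gene moved by 0.51 at day 1 and 0.52 at day 3. Members at least 2-fold higher then numbered 8 of 51 at day 1 and 5 of 48 at day 3, against 31.8% and 22.3% of all genes. Those lower numbered 3 and 7, against 3.57% and 2.5% of all genes. The day 1 medians became -0.21 (homologous recombination), 0.31 (end joining), 0.0056 (mismatch repair), -0.094 (base excision), 0.87 (nucleotide excision), -0.63 (Fanconi anaemia), 0.50 (signalling), 0.69 (translesion synthesis), -0.30 (S phase list), 0.35 (other members) and 0.86 (p53 list). At day 3 they became -0.77, 0.39 (end joining), -0.085 (base excision), 0.80 (nucleotide excision), -0.33 (Fanconi anaemia), 0.12 (signalling), 0.24 (translesion synthesis), -1.47 (S phase list), 0.33 (other members) and 0.75 (p53 list).

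With the density peak at 0, which moved day 1 by 0.18, 5 of 51 members were lower at day 1, against 7.57% of all genes. Medians were 0.17 (signalling) and 0.023 (members outside the S phase list) at day 1, and day 3 minus day 1 gave -0.11 (base excision), -0.083 (nucleotide excision) and -0.10 (p53 list). Over genes on both arrays, 3 members were higher at day 1 and 1 at day 3. Medians were -1.53 (Fanconi anaemia) and 0.040 (signalling) at day 1 and -0.86 (signalling) at day 3. Without Rev1, whose probe carries an older name, the translesion median was -1.01 at day 3 and -0.47 for the difference.

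Past 1.5-fold, 8 members were higher and 22 lower at day 1, and 4 higher at day 3. Past 3-fold, 3 were higher and 2 lower at day 1, 1 higher and 6 lower at day 3, and 1 higher and 4 lower for the difference. Shares of all genes are not given for these fold limits or for genes on both arrays, so those counts have no background here. Means in place of medians were 0.063 (end joining, day 1), -1.03 (homologous recombination), -0.96 (base excision) and 0.0080 (translesion synthesis) at day 3, and 0.10, -0.055, -0.043 and -0.016 for the difference in end joining, base excision, nucleotide excision and the p53 list. The deposited centring and the choice of the largest probe moved no count of members by over 1.5 times. The alternatives differ from the main setting by construction, such as a common shift, fewer genes, another limit or a mean in place of a median. Why single values moved was not tested. The number of arrays limits the precision.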
